A study of Mus musculus with 2 samples.

Results

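Leydig cells with at least 1 Ccl2 count in the testis of mice aged 24 months are described here, beside Leydig cells of the same library with no Ccl2 count. The filter asked for 500 counts, 200 genes and a mitochondrially encoded share of no more than 25%, and 5812 cells passed it. A passing cell was taken as a Leydig cell where Cyp17a1, Ptgds, Hsd3b6 and Star together held at least 1% of its counts, and 646 cells met that rule. Of these, 135 cells had a Ccl2 count and 511 had none, against 8582 kept cells over both libraries. The study measured testicular cells on the BD Rhapsody microwell system, 1 library per age, 2 and 24 months, from mice anaesthetised with Avertin, with accutase digestion after the tunica was removed. The labels name the cells stroma and give no strain, genotype or number of mice, and both libraries share the anaesthetic and the digestion. With 1 library per age there is no replicate, so no p-value was computed, and every interval below is a 95% interval that covers counting error only.

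CCL2, also called MCP-1, is a chemokine that draws monocytes and other leukocytes carrying the receptor CCR2. Its transcription is known to be switched on by NF-kB after interleukin-1, tumour necrosis factor or bacterial products, and CXCL1, which attracts neutrophils, is a classical target of the same factor. Leydig cells make testosterone from cholesterol in the space between the seminiferous tubules, where resident macrophages lie against them and where macrophages are themselves a known source of CCL2.

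The promoters of the chemokine genes Cxcl1 and Cxcl10 are shown because these genes stand out among the Leydig cells with Ccl2 described below. Each run holds the 250 bases before the gene's start on the gene's own strand, from RefSeq in build GRCm38.p6, at chr5:90890995-90891244 on the plus strand for Cxcl1 and chr5:92348890-92349139 on the minus strand for Cxcl10. Capitals mark matches to the NF-kB consensus, searched on both strands, and overlapping matches run together.
Cxcl1: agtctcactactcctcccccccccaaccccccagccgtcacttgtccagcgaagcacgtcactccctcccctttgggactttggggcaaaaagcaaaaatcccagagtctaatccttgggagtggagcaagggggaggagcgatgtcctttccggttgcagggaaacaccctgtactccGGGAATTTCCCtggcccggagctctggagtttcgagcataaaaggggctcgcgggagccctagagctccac
Cxcl10: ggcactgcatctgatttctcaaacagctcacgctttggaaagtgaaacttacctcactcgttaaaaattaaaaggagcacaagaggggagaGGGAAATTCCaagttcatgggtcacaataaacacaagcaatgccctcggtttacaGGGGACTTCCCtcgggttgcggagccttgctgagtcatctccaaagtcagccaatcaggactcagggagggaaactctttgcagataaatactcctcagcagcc
The consensus was found in 2382 of 32851 promoters of this length, or 7.251%. Of the 6 genes of these results whose promoters were searched, Cxcl1, Cxcl10 and Nfkbia held a match, and Lcn2, Saa3 and Socs1 had none in this window. Ccl2 and Hes1 were not searched, as the promoter reference held no entry for them. The 6 genes were picked from those described here, so their matches are no comparison with the share of all promoters. A match describes the letters of the window and says nothing on binding in these cells.

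The label of the cells was checked against macrophage markers, and it held for a part of them only. Of 14 macrophage markers, 77 of the 135 cells with Ccl2 had none, 3 cells had 1, and the other 55 cells, 40.74%, had 4 or more. No cell with Ccl2 had 2 or 3. The 14 markers were Ptprc, Csf1r, Adgre1, Cd68, C1qa, C1qb, C1qc, Lyz2, Mrc1, Cd74, H2-Aa, H2-Ab1, Tyrobp and Fcer1g. Among the 511 Leydig cells without Ccl2, 457 had no marker and 10 had 4 or more. The cells with no marker are called marker-free below and those with 4 or more macrophage-marked, a split made after the values had been seen.

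**Figure D1:**
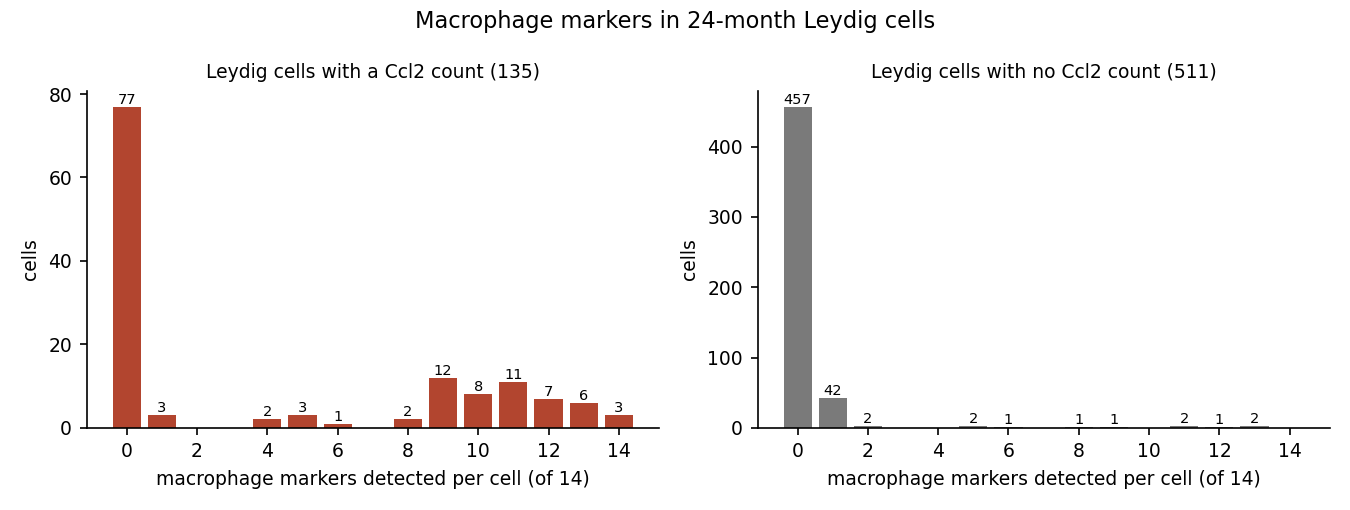
Number of 14 macrophage markers detected per cell (horizontal axis) and number of cells (vertical axis) for the 135 Leydig cells with a Ccl2 count (left) and the 511 without (right), each bar carrying its count. Cells with Ccl2 fall into a group of 77 with no marker and a group of 55 with 4 or more, while 457 of the cells without Ccl2 have no marker.

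Both kinds of cell carried the Leydig genes. Cyp17a1, the steroid 17-alpha-hydroxylase, had a count in 74 of the 77 marker-free and 54 of the 55 macrophage-marked cells, with a lowest, median and highest count per cell of 0, 35 and 127 in the former and 0, 21 and 161 in the latter. As sums per 1000000 counts of the set (CPM), Cyp17a1 stood at 6603 CPM (6363 to 6851) and 4603 CPM (4374 to 4840). Star, which carries cholesterol into mitochondria, stood at 2617 CPM (2466 to 2774) and 1459 CPM (1332 to 1596), and Insl3, a Leydig peptide hormone, at 81.5 CPM (56.8 to 113) and 57.6 CPM (34.7 to 90.0). Cyp17a1 and Star helped to choose the cells, so their levels describe the rule, and Insl3 did not. The 4 rule genes held a median of 3.34% of a marker-free and 2.82% of a macrophage-marked cell's counts.

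The macrophage-marked cells carried a full set of macrophage transcripts beside these. Lyz2, the lysozyme of myeloid cells, had 1114 counts in 53 of the 55 cells and 0 in the 77 marker-free cells. C1qc, a chain of complement C1q, had 660 counts in 54 of the 55. Counts of the 14 markers per macrophage-marked cell ran from 5 to 200, at 12467 CPM in all. Depth was alike, with a median of 5751 counts and 2434 genes per macrophage-marked cell and 5704 counts and 2363 genes per marker-free cell. Scrublet called 1 of the 55 and 1 of the 77 a doublet, against 18 of the 511 Leydig cells without Ccl2, and the part of doublets in the macrophage transcripts was not tested.

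Ccl2 followed the same division. The gene lies at chr11:82035571-82037453 on the plus strand (GRCm38). Its count per cell had a lowest, median and highest value of 1, 2 and 21 in the marker-free cells and 1, 6 and 31 in the macrophage-marked cells. The sums were 251 and 400 counts, or 585 CPM (515 to 662) and 1214 CPM (1098 to 1339), so that the macrophage-marked cells, 40.74% of the set, held 60.7% of its Ccl2 counts. A Ccl2 count was present in 55 of 65 macrophage-marked Leydig cells (84.6%, 73.5 to 92.4) and in 77 of 534 marker-free Leydig cells (14.4%, 11.6 to 17.7). These shares restate how the cells were chosen and carry no test.

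The shares with Ccl2 are set here beside those of cells that should lack the gene, as a measure of background. After each cell was thinned to 2000 counts, with shallower cells left out, 46 of 482 marker-free Leydig cells had a Ccl2 count (9.54%, 7.07 to 12.5). Over all Leydig cells, of which the macrophage-marked cells gave 46 of 94 with Ccl2, it was 94 of 589 (15.96%, 13.1 to 19.2), against 2 of 3067 cells with 4 or more of 6 spermatocyte markers (0.0652%). Before thinning the shares were 14.4% (11.6 to 17.7) of marker-free Leydig cells at a median depth of 4718 counts, 20.9% (17.8 to 24.2) of all Leydig cells at 4831 and 0.5996% (0.361 to 0.935) of the spermatocyte-marked cells at 16875. Lyz2 was found in 0.0978% of the spermatocyte-marked cells after thinning. The other 5067 kept cells, which are neither Leydig cells nor macrophage-marked, had Ccl2 in 0.691% at a median depth of 13538 counts.

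The threshold on the Leydig genes did not fall in an empty stretch. Between 1% and 1.2% there were 15 cells, 5 of them with Ccl2, and between 0.8% and 1% there were 10 cells, 2 with Ccl2. With the threshold at 3% the share with Ccl2 was 17.6% of 393 cells. On the side of Ccl2, 34 cells had a single count, 51 had 2 to 4 and 50 had 5 or more.

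Beside macrophages of the same library that lie outside the Leydig set, the macrophage-marked Leydig cells with Ccl2 had less Cd74 and H2-Aa per Lyz2 count. There were 99 such macrophages, with at least 4 of the 14 markers, a median depth of 2000 counts and a Ccl2 count in 71 of them. Ccl2 stood at 1243 CPM (1130 to 1364) there and at 1214 CPM in the 55 cells, but each of the 55 was chosen for a Ccl2 count and the macrophages were not, so the 2 levels are no comparison. Csf1r, the receptor of macrophage colony-stimulating factor, was 20.8 (18.7 to 23) per 100 Lyz2 counts in the macrophages and 21.6 (18.7 to 24.9) in the macrophage-marked Leydig cells, so the intervals of that ratio overlap.

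Cd74, the invariant chain of MHC class II, was 56.3 (52.4 to 60.4) per 100 Lyz2 counts in the macrophages and 18.5 (15.9 to 21.5) in the macrophage-marked Leydig cells, and H2-Aa, an MHC class II chain, 56.2 (52.3 to 60.3) and 19.9 (17.2 to 23.04). Mrc1, the mannose receptor of resident macrophages, was 12.7 (11.2 to 14.4) and 11.8 (9.74 to 14.1). The chemokine Ccl8 was 57.3 (53.4 to 61.5) and 82.9 (75.9 to 90.6), and Ccl4 was 8.37 (7.14 to 9.75) and 20.6 (17.7 to 23.7). Ccl8 and Ccl4 were thus higher and Cd74 and H2-Aa lower per Lyz2 count in the macrophage-marked Leydig cells. The macrophages differ from them in depth, with 49 of 99 under 2000 counts, and in the choice for Ccl2, and the part of either was not tested.

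**Figure D2:**
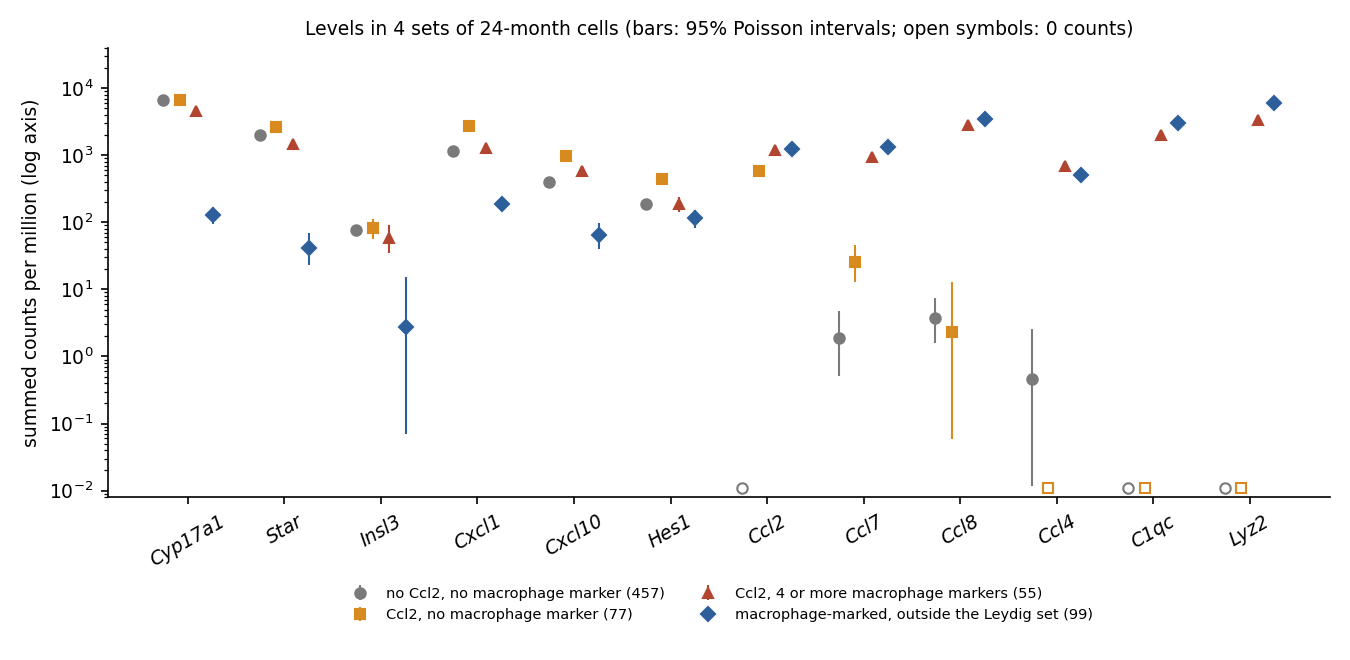
Summed CPM (log axis) of 12 genes in 4 sets of 24-month cells, with bars for 95% Poisson intervals and open symbols at the foot for 0 counts. Macrophage-marked Leydig cells with Ccl2 (red triangles) sit near the macrophages (blue diamonds) for Ccl7, Ccl8, Ccl4, C1qc and Lyz2, and near the other Leydig cells for Cyp17a1, Star and Insl3.

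All 135 cells with Ccl2 were set against 135 Leydig cells without, each matched to the nearest total count. The sums were 774607 and 772978 counts with medians of 5733 and 5720 per cell. Of 8186 genes with 20 counts or more over both groups, 916 were at least 1.5-fold higher (11.2%) and 947 at least 1.5-fold lower (11.6%) in the cells with Ccl2. The median log2 ratio of all these genes was -0.05. The call is one of size and not a test. A gene that is near 0 in the cells without Ccl2 reaches 20 counts only where it is high in the others, so counts are also given, as a choice made after the values were seen, over genes with 10 counts or more in the cells without Ccl2. Of 8155 such genes 6.60% were at least 1.5-fold higher and 15.3% lower, with a median log2 ratio of -0.10. That filter leans the other way, since it lets in genes that happen to be high in the cells without Ccl2.

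The genes at the top of this comparison were macrophage genes. C1qc had 661 counts against 0 in the matched cells, or 220-fold against a floor of 3 counts there. Pf4, a platelet and macrophage chemokine, had 184 against 0, or 61.2-fold against that floor. F13a1, a coagulation factor subunit made by resident macrophages, had 167 against 0, or 55.5-fold. Lyz2 had 1114 against 3 and the chemokine Ccl8 925 against 5. The 55 macrophage-marked cells held 660 of the 661 C1qc counts and all 1114 of Lyz2. In the matched group of 135 the highest sum of the 14 markers in a cell was 2. That group thus held none of the 10 macrophage-marked cells without Ccl2, and the folds above hold for it only. Over all 511 cells without Ccl2, C1qc had 58 counts, Pf4 17 and F13a1 23. Their lowest log2 ratios under the alternatives were 4.99, 4.41 and 4.05.

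Chemokines and signalling genes were mixed with this. Of 14 chemokines and cytokines measured besides Ccl2, 11 were at least 1.5-fold higher, with a median log2 ratio of 2.35, against 11.2% of all genes. Of the 8 among them with 10 counts or more in the cells without Ccl2, 5 were higher, against 6.60% of all genes, with a median of 0.69. In the list of NF-kB pathway and feedback genes the figure was 12 of 23 with a median of 0.70, and among immediate early genes, which answer a stimulus within minutes, 13 of 25 with a median of 0.72. Both lists hold genes that macrophages express. Atf3, an immediate early gene, stood at 792 CPM in the macrophage-marked cells, 1053 CPM in the macrophages outside the Leydig set and 207 CPM (167 to 255) in the marker-free cells. Klf6 stood at 1274, 1597 and 638 CPM in the same order. Summed over its members, the NF-kB list stood at 7755 CPM in the macrophage-marked and 7766 CPM in the marker-free cells, and the immediate early list at 22270 and 18827 CPM. The part of macrophage transcripts in the counts of both lists was not tested.

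The lowest genes of the same comparison included a kallikrein and genes of germ cells. Klk1, had 8 counts against 81, and its log2 ratio of -3.26 was 0.44 once the highest cell of each group was left out. Acr and Spink2, which act in the sperm acrosome, had 10 against 41 and 26 against 97 counts. The 6 spermatocyte markers summed to 181 CPM with Ccl2 and 430 CPM without, and the 6 spermatid markers to 968 and 435 CPM, with a median log2 ratio of 0.85 that was -1.67 against a further set of matched cells. Samd10, with 11 counts in 10 cells against 53 counts in 42 cells, was spread over many cells.

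The marker-free cells with Ccl2 were then compared alone, 77 cells against 77 depth-matched marker-free Leydig cells without Ccl2. The sums were 429168 and 428993 counts, with medians of 5704 and 5694 per cell. In these cells the chemokines Cxcl1 and Cxcl10, the NF-kB inhibitor Nfkbia, the interferon-induced GTPase Irgm1 and the Notch target Hes1 were higher. Transcripts of the enzymes of testosterone synthesis were within 1.5-fold. Of 5787 genes with 20 counts or more, 591 were at least 1.5-fold higher (10.2%) and 517 at least 1.5-fold lower (8.93%). The median log2 ratio over all of them was -0.00059. Of 5853 genes with 10 counts or more in the cells without Ccl2, a filter that favours low ratios, 6.15% were higher and 13.3% lower. All 14 macrophage markers are at 0 in both groups by the choice of cells. T cell and peritubular myoid markers had 0 counts in the cells with Ccl2 and 1 count each in the others, endothelial markers 10 counts in each group, and fibroblast markers 35 and 45. Spermatocyte markers summed to 177 and 277 CPM and spermatid markers to 247 and 291 CPM, whose part in the results was not tested.

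Cxcl1, at chr5:90891241-90893115 on the plus strand, had a lowest, median and highest count of 0, 15 and 50 per cell in the 77 cells with Ccl2. It was present in 75 of them, with 1179 counts, against 57 of the 77 matched cells, with 618 counts. The levels were 2747 CPM (2593 to 2909) and 1441 CPM, a ratio of 1.907 (1.729 to 2.105). The single cells of the groups overlap, since the highest cell had 50 counts with Ccl2 and 49 without. After thinning to 2000 counts, Cxcl1 was present in 67 of 74 cells with Ccl2 (90.5%, 81.5 to 96.1) and in 246 of 408 marker-free cells without (60.3%, 55.4 to 65.1). Macrophages outside the Leydig set had 189 CPM (147 to 240), below the 3 Leydig sets plotted, and the macrophage-marked cells 1302 CPM (1181 to 1431).

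Cxcl10, a chemokine induced by interferons and NF-kB that attracts T cells, had 420 counts in 50 cells against 211 counts in 35 cells, a ratio of 1.99 (1.68 to 2.36). Its count per cell reached 29 with Ccl2 and had a median of 2. Of the other measured chemokines, Cxcl16 (17 against 8 counts) and Cx3cl1 (17 against 7) were also past 1.5-fold, with intervals that reach below 1. Cxcl12, which holds leukocytes through CXCR4, had 98 against 110 counts, and Csf1, the growth factor of macrophages, 32 against 35. In all 4 of 7 measured chemokines and cytokines other than Ccl2 were at least 1.5-fold higher and none lower, against 10.2% and 8.93% of all genes, but Cxcl16 and Cx3cl1 reached 20 counts through the cells with Ccl2. Of the 5 with 10 counts or more in the cells without Ccl2, Cxcl1 and Cxcl10 were higher, against 6.15% of all genes. The median log2 ratio was then -0.00 in place of 0.93. Ccl7, the neighbour of Ccl2 on chromosome 11 and a CCR2 ligand too, had 11 counts in 5 cells against 2 counts in 1 cell. Il6 had 8 counts in 6 cells against 0, while Ccl3, Ccl5, Il1a and Il1b had none in either group.

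Receptors of these signals were measured at low counts. Il1r1, the signalling receptor of interleukin-1, had 36 counts in 29 cells against 15 counts in 12 cells, a ratio of 2.40 (1.28 to 4.72). Its log2 ratio of 1.24 was 0.08 against a further set of matched cells, so the value rests on which cells were matched. Tnfrsf1a, the main receptor of tumour necrosis factor, had 56 against 38 counts (ratio 1.47, 0.959 to 2.29), and Il10rb 24 against 19. Of 8 measured receptors 2 were at least 1.5-fold higher and none lower, against 10.2% and 8.93% of all genes. The median log2 ratio was 0.40.

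Inhibitors that NF-kB itself induces were among the higher genes. Nfkbia, which encodes the inhibitor IkB-alpha, had 248 counts in 64 cells with Ccl2 and 133 counts in 47 cells without, a ratio of 1.864 (1.504 to 2.319) whose log2 of 0.90 was 0.55 when cells were matched on Leydig gene share too. Tnfaip3, the deubiquitinase A20, had 22 counts in 17 cells against 6 counts in 5 cells (ratio 3.67, 1.44 to 11.1). With fewer than 10 counts in the cells without Ccl2, Tnfaip3 was measured through the cells with Ccl2. Birc2, a ubiquitin ligase of the same pathway, had 102 counts in 51 cells against 48 counts in 31 cells (ratio 2.12, 1.49 to 3.06). Vcam1, an adhesion molecule that NF-kB can induce, was level at 1550 and 1542 counts (ratio 1.005, 0.936 to 1.08), and Icam1 had 64 against 54.

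Over the list of NF-kB pathway and feedback genes, 8 of 17 measured members were at least 1.5-fold higher and none lower, against 10.2% and 8.93% of all genes. The median log2 ratio was 0.53, and between 0.39 and 0.72 under 15 alternatives. With 10 counts or more in the cells without Ccl2 asked for, 7 of 16 members were higher and none lower, against 6.15% and 13.3% of all genes. Among STAT3 and JAK feedback genes 2 of 14 were higher and 1 lower, with a median of 0.30. Socs1, which blocks JAK kinases, had 55 counts in 32 cells against 21 counts in 14 cells (ratio 2.62, 1.56 to 4.56), a log2 ratio of 1.37 that was 0.49 against the further set of matched cells. Socs3 was at 1.31 (1.05 to 1.62).

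Of 21 measured interferon-response genes, 10 were at least 1.5-fold higher and none lower, against 10.2% and 8.93% of all genes, with a median log2 ratio of 0.45. With 10 counts or more in the cells without Ccl2 asked for, 6 of 16 were higher, against 6.15% of all genes, and the median was 0.40. Gbp2, a guanylate-binding protein that acts on intracellular microbes, had 27 counts in 15 cells against 4 counts in 4 cells. Gbp2 was thus measured through the cells with Ccl2 and fell below the limit of 10 counts in the cells without. Irgm1, a GTPase of the same response, had 130 counts in 46 cells against 69 counts in 32 cells (ratio 1.883, 1.396 to 2.56), and Irf1, a transcription factor, 472 counts in 74 cells against 307 counts in 57 cells (ratio 1.54, 1.33 to 1.78). The log2 ratio of Irf1 was 0.46 with 2 or more Ccl2 counts asked for. Ifi27 was level at 354 and 344 counts. MHC class I genes had 2 of 9 higher and 1 lower, with a median of 0.30. The higher pair was Psmb8 and H2-D1. Psmb8, a subunit of the immunoproteasome, had 26 counts in 18 cells against 6 in 6, so it also fell below 10 counts in the cells without Ccl2. With 10 counts or more asked for there, 1 of 8 MHC class I genes was higher and 1 lower, with a median of 0.23. H2-D1 had a ratio of 1.60 (1.34 to 1.92). Its counts can be shared with close relatives, and its log2 ratio of 0.68 was 0.33 at the lowest alternative.

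Acute-phase proteins, which the liver secretes in inflammation, had 4 of 11 measured members at least 1.5-fold higher and none lower, against 10.2% and 8.93% of all genes. The median log2 ratio of 0.43 was 0.21 when cells were matched on Leydig gene share too. Over members with 10 counts or more in the cells without Ccl2 it was 0.33. There 3 of 10 were higher, against 6.15% of all genes. Saa3, a serum amyloid A, had 55 counts in 9 cells with Ccl2 and 11 counts in 4 cells without, so a few cells carry it. Complement C3 had 21 counts in 9 cells against 6 counts in 4 cells, and so fell below 10 counts in the cells without Ccl2. Lcn2, a siderophore-binding protein that nearly all these Leydig cells express, had 6594 counts in 76 cells against 4887 counts in 76 cells, a ratio of 1.35 (1.3 to 1.4). The metallothioneins Mt1 and Mt2, which bind zinc and copper, had ratios of 1.39 (1.31 to 1.47) and 1.52 (1.4 to 1.64). Hmox1, which breaks down haem, had 104 counts in 41 cells against 47 counts in 30 cells (ratio 2.21, 1.55 to 3.19).

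Immediate early genes divided. Digestion of a tissue can induce genes of this kind, and its part in the level and the higher genes was not tested. Fos, Jun and Fosb were level, with ratios of 1.08 (0.976 to 1.19), 0.949 (0.856 to 1.05) and 0.965 (0.856 to 1.09). Atf3 was higher, with 89 against 55 counts, and so was Ier3, with 195 against 109. Klf6, a zinc finger factor, had 274 counts in 60 cells against 162 counts in 51 cells (ratio 1.69, 1.39 to 2.07). Btg2, an antiproliferative p53 target, had 534 counts in 73 cells against 307 counts in 66 cells (ratio 1.74, 1.51 to 2.01). Over the list 6 of 21 were at least 1.5-fold higher and 1 lower, against 10.2% and 8.93% of all genes. The lower gene was Klf4 with 29 against 45 counts. The median log2 ratio of the list was 0.38, or 0.12 with 2 or more Ccl2 counts asked for. The log2 ratio of Klf4, -0.63 here, was 1.29 over all 135 cells. For Klf4 the macrophage-marked cells had 115 counts against 29 in the marker-free cells.

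Among cell cycle inhibitors and p53 targets 6 of 18 were at least 1.5-fold higher and none lower, against 10.2% and 8.93% of all genes, with a median log2 ratio of 0.43. Gadd45b, a stress sensor, had 34 counts in 26 cells against 12 counts in 10 cells, a log2 ratio of 1.46 that was 0.27 against the further set of matched cells. Mdm2, the ligase that degrades p53 and is its target, had a ratio of 1.77 (1.15 to 2.76). Cdkn1a, the inhibitor p21, had 95 counts in 31 cells against 78 counts in 21 cells (ratio 1.22, 0.893 to 1.66), and Cdkn2a, the senescence gene of p16, had no count in either group. Of 8 measured senescence and secreted factors 1 was past 1.5-fold, and it was Cxcl1.

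**Figure D3:**
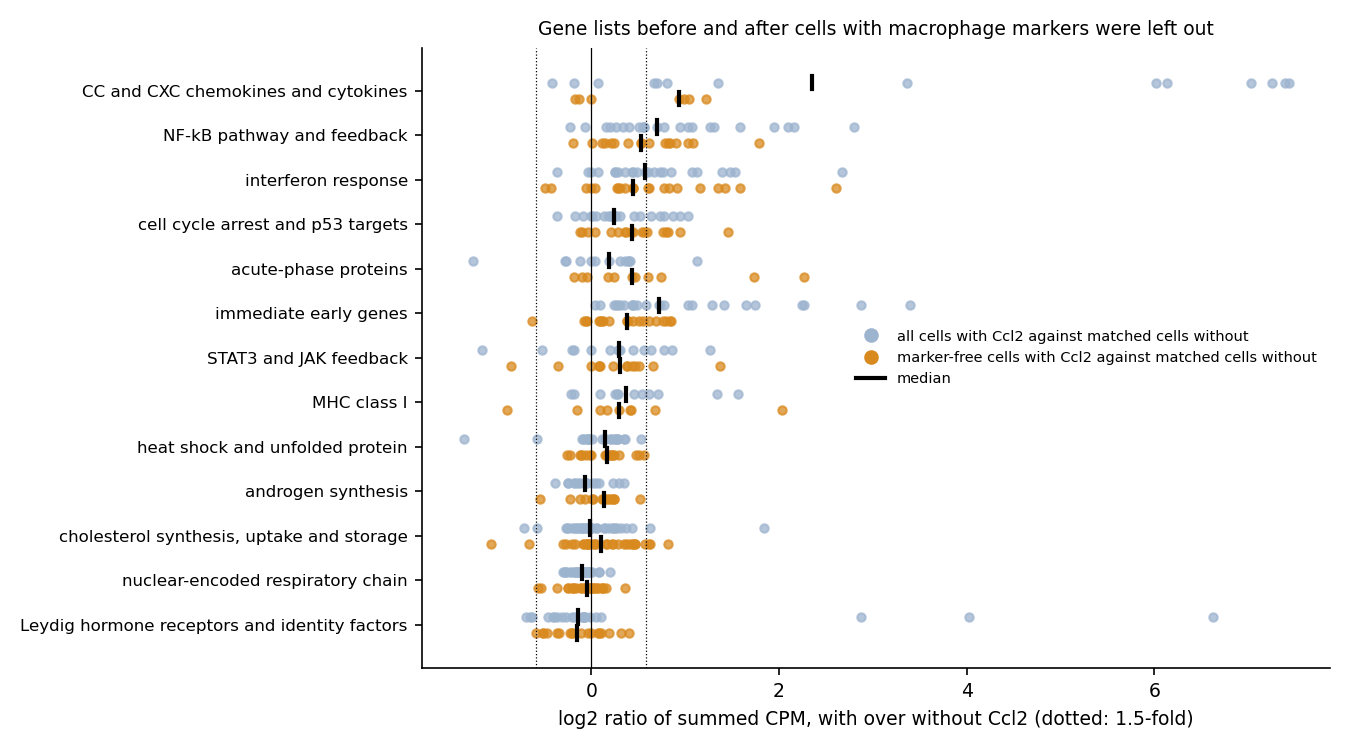
Log2 ratio of summed CPM, Leydig cells with Ccl2 over depth-matched cells without (horizontal axis), for the members of 13 gene lists with 20 counts or more (Ccl2 left out). Blue points compare all 135 cells with Ccl2 with 135 cells without, orange points 77 marker-free cells with 77, black bars the medians and dotted lines 1.5-fold; the NF-kB median is 0.70 over all cells and 0.53 in marker-free cells, while that of androgen synthesis is -0.07 and 0.14. Chemokines near 0 in the cells without Ccl2 appear only where they are high with Ccl2.

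Transcripts of testosterone synthesis were near equality. None of 16 measured androgen synthesis genes was at least 1.5-fold higher or lower, against 10.2% and 8.93% of all genes. Over all genes with 50 counts or more, those shares were 5.05% and 3.41%. The median log2 ratio of the 16 genes was 0.14, and between 0.04 and 0.15 under the alternatives. Both groups were chosen by a rule on Cyp17a1, Ptgds, Hsd3b6 and Star, so the nearness of these genes describes the rule in part. Cyp11a1, which cleaves the cholesterol side chain, had 1102 counts in 74 cells against 1007 counts in 74 cells (ratio 1.094, 1.003 to 1.193), and Hsd17b3, which makes testosterone, 691 against 683 (ratio 1.01, 0.908 to 1.13). Hsd3b6, an isoform of adult Leydig cells that helped to choose the cells, had a ratio of 0.683 (0.633 to 0.737), a log2 ratio of -0.55 that was 0.01 against the further set of matched cells. Lhcgr, the receptor of luteinising hormone, had 152 counts in 56 cells against 142 in 55 (ratio 1.07, 0.846 to 1.36).

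Of 18 measured hormone receptors and identity factors none was higher and 1 lower, against 10.2% and 8.93% of all genes. The median log2 ratio was -0.16. Cholesterol genes had 3 of 32 higher and 2 lower, near the shares of all genes, around a median of 0.11. Insig1, which restrains cholesterol synthesis, was among the higher, with 99 against 56 counts and a log2 ratio of 0.82 that was 0.10 against the further set. Mvk, an enzyme of the mevalonate pathway, was among the lower, with 15 against 32 counts, and its log2 ratio of -1.07 reached 0.21 at the other end of the alternatives. Nuclear-encoded respiratory chain genes had 0 of 28 past 1.5-fold in either direction and a median of -0.05, cytosolic ribosomal proteins 1 of 29 higher, and heat shock and unfolded protein genes 0 of 20. Fewer genes pass 1.5-fold at higher counts, with 5.05% higher and 3.41% lower over all genes with 50 counts or more.

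Beyond the lists, Hes1 stood out. Hes1, a transcriptional repressor that Notch signalling induces, lies on chromosome 16. It had 189 counts in 64 of 77 cells with Ccl2 and 67 counts in 33 of 77 cells without, a ratio of 2.82 (2.12 to 3.78), with a lowest, median and highest count of 0, 2 and 14 in the cells with Ccl2. The macrophage-marked cells with Ccl2 stood at 185 CPM (142 to 238), the marker-free cells with Ccl2 at 440 CPM (380 to 508) and all 457 marker-free cells without at 186 CPM (168 to 205). Hes1 was thus higher in the marker-free cells with Ccl2 than in either of the other sets. Its log2 ratio of 1.49 ran from 0.94 to 1.67 under 15 alternatives.

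Other genes with 50 counts or more and the highest ratios were Dusp5, a phosphatase that restrains ERK, with 42 against 14 counts, Id3, an inhibitor of helix-loop-helix factors, with 51 counts in 25 cells against 21 in 14, and S1pr3, a sphingosine-1-phosphate receptor, with 42 counts in 30 cells against 18 in 16. Atn1, Lysmd3 and Apip had 42 against 17, 37 against 15 and 61 against 27 counts, and their log2 ratios were 0.27, 0.67 and 0.28 under the least favourable alternative. Cyp21a1, a steroid 21-hydroxylase gene better known from the adrenal, had 45 counts in 16 cells against 17 counts in 9 cells, and its log2 ratio of 1.38 turned to -0.08 when cells were thinned and set against all marker-free cells. At the other end, Sfxn1, a mitochondrial serine carrier, had 13 counts in 11 cells against 37 in 29, and Serpinf1, which encodes pigment epithelium-derived factor, 14 in 13 against 38 in 23. Aldh3a1, an aldehyde dehydrogenase, had 126 counts in 44 cells against 337 counts in 40 cells, a log2 ratio of -1.42 that was -0.56 against the further set. Mif4gd, Rap1a, Mycbp2, Unc119, Dnlz, Macf1, Gpr137 and Pink1 followed, with log2 ratios from -1.27 to -1.09. Klk1 had 5 counts against 80, and the difference came from 1 cell, since its log2 ratio was 0.00 with the highest cell of each group left out.

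Among marker-free Leydig cells, those with a single Ccl2 count already had the higher Cxcl1 level. Cxcl1 stood at 1169 CPM (1124 to 1216) in the 457 cells without Ccl2, at 2722 CPM (2446 to 3021) in the 27 cells with 1 count, at 2726 CPM (2508 to 2959) in the 35 cells with 2 to 4 and at 2833 CPM (2494 to 3206) in the 15 cells with 5 or more. The last 3 intervals overlap. Median depths in that order were 4577, 4705, 6240 and 5780 counts per cell, and the part of depth was not tested. Cxcl10 went from 399 to 892, 936 and 1208 CPM and Hes1 from 186 to 385, 423 and 564 CPM, and in both the intervals of neighbours among the cells with Ccl2 overlap.

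Lcn2 went the other way within the cells with Ccl2, at 11215 CPM with no Ccl2 count and at 17247, 14905 and 13693 CPM with 1, 2 to 4 and 5 or more. Cyp17a1 was 6638, 6674, 6783 and 6073 CPM. As a description over cells of 1 library that share depth and totals, Spearman's rho between the Ccl2 and Cxcl1 shares of a cell was -0.07 over the 77 marker-free cells and -0.22 over all 135. That between Ccl2 and Lyz2 was 0.47 over the 135 and 0.38 within the 55 macrophage-marked cells.

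**Figure D4:**
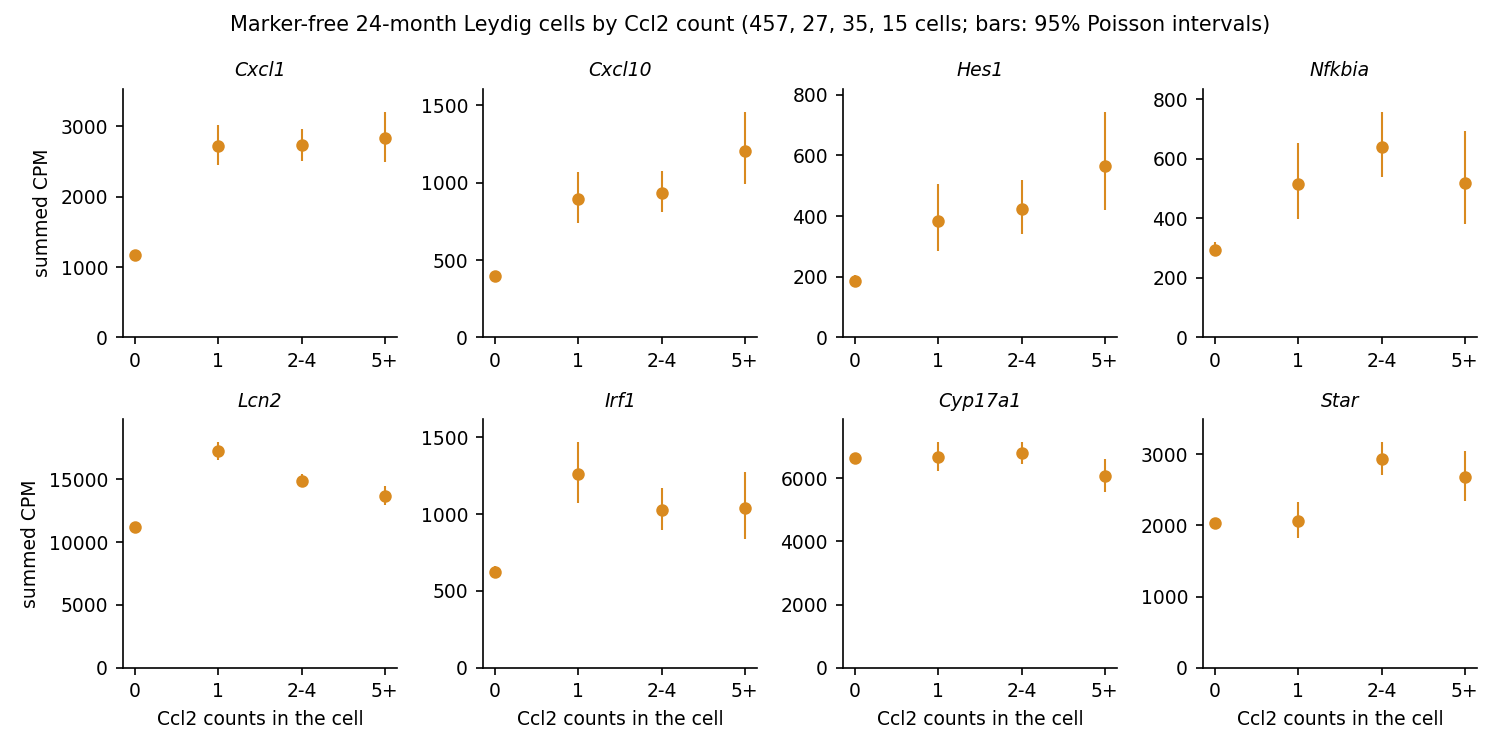
Summed CPM of 8 genes (vertical axes from 0) in marker-free 24-month Leydig cells with 0, 1, 2 to 4 and 5 or more Ccl2 counts (457, 27, 35 and 15 cells), with 95% Poisson intervals. Cxcl1, Cxcl10, Hes1, Nfkbia, Lcn2 and Irf1 are higher in all 3 groups with Ccl2 than in cells without, whereas Cyp17a1 is 6638 CPM without Ccl2 and between 6073 and 6783 CPM with it.

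Set directly against the marker-free cells, the macrophage-marked cells with Ccl2 were lower in Cxcl1, Cxcl10 and Hes1 and higher in Ccl8, Ccl4, Tnf and Cxcl2. Cxcl1 had 429 against 1179 counts, a ratio of 0.474 (0.423 to 0.530), Cxcl10 a ratio of 0.589 (0.494 to 0.701) and Hes1 one of 0.420 (0.310 to 0.564). The steroidogenic genes were lower too, by less, with ratios of 0.697 (0.654 to 0.742) for Cyp17a1 and 0.750 (0.679 to 0.828) for Cyp11a1, and of 16 measured androgen synthesis genes none was at least 1.5-fold higher, and 2 were lower, with a median log2 ratio of -0.44. Of all 5452 genes measured 14.5% were at least 1.5-fold higher and 14.6% lower, with a median log2 ratio of -0.07. Ccl8 had 924 counts against 1 and Ccl4 229 against 0. Tnf, a cytokine of macrophages, had 63 counts in 30 cells against 2 counts in 2 cells, and Cxcl2, a neutrophil chemokine, 157 counts in 38 cells against 9 in 5. Of 14 measured chemokines and cytokines other than Ccl2, 8 were at least 1.5-fold higher and 4 lower, with a median log2 ratio of 2.59, and some of them reach 20 counts through the macrophage-marked cells alone.

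At 2 months the cells chosen by the same rule were fewer and mostly macrophage-marked. A Ccl2 count was present in 40 of 1144 Leydig cells (3.50%, 2.51 to 4.73), and 32 of the 40 had 4 or more macrophage markers, 1 had 1 and 7 had none. Of the 847 marker-free Leydig cells at 2 months 0.826% had Ccl2, against 14.4% of 534 at 24 months. As background, 1.616% of the 1238 spermatocyte-marked cells at 2 months had Ccl2, at a median depth of 30046 counts. After thinning to 2000 counts, 1.49% (0.868 to 2.37) of all Leydig cells at 2 months and 15.96% (13.1 to 19.2) at 24 months had a count. The 2-month Leydig cells were the deeper, with a median of 7035 counts against 4831. Age, library and whatever else set the 2 libraries apart cannot be told apart.

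In the 2-month library, 40 cells with Ccl2 and 40 matched cells without had Cxcl1 at 330 CPM (274 to 394) and 356 CPM (298 to 422), a ratio of 0.928 (0.72 to 1.195). Cyp17a1 stood at 8787 and 9764 CPM, and Lyz2 had 898 counts in 31 cells against 4 counts in 4. With 7 marker-free cells and 11 Ccl2 counts in them, the marker-free comparison was not made at that age. Over all 135 cells with Ccl2 at 24 months, Cxcl1 stood at 2157 CPM (2055 to 2263), against 1230 CPM (1153 to 1311) in their matched cells. These values, and not the marker-free ratio at 24 months, cover the like set of cells. Across the libraries 35 cell indices were shared, 1 of them by a 24-month cell with Ccl2.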

How the data were processed

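Per the labels' protocols, testicular cells were captured with BD Rhapsody and whole-transcriptome libraries were sequenced. The deposited files are 2 tables, 1 for each library, of raw counts that are whole numbers for every gene in every cell. Per the file headers, the 24-month table came from the BD pipeline 1.7.1 with STAR 2.5.2b; per the submitters' processing notes, Cell Ranger 2.11 and mm10 were used. The sources differ, and whether counts are of molecules or of reads is not given in the sources used here.

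Counts were summed over cells and given as CPM with exact Poisson intervals, ratios with exact conditional binomial intervals and shares with Clopper-Pearson intervals (scipy 1.17.1, numpy 2.4.6). Log2 ratios used 0.5 added to each count. Each cell with Ccl2 was matched without replacement to the nearest total within 0.25 log2 units. Thinning used seed 1. Doublets were called with Scrublet in scanpy 1.11.5 and kept. Scripts were tested on simulated sums of counts without variation between cells. That check cannot show how the intervals hold for genes carried by a few cells. Genes were located in GENCODE M21 (GRCm38). Counts of Hsd3b, Mt, Klk1b and MHC class I genes can be shared between close relatives. Among genes with 50 counts or more, the text draws on the 12 highest and 12 lowest, leaving out rule, ribosomal, globin and mitochondrially encoded genes, and on the members of 28 lists. Members of the set and lists were chosen with earlier results of these data known, and more list members are named than the rule asks, after their values were seen. With 1 library per age no model across genes was fitted.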

Additional observations from a re-analysis of the deposited data

How the results depend on the processing

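No paired analysis was possible because each age has 1 library and no replicate number is shared by samples that could be paired. Alternatives changed 1 choice at a time, except that thinned cells were also set against all cells without Ccl2 and not matched ones. The share of Leydig cells with Ccl2, 20.9% at 24 months and 3.497% at 2 months, was 17.56% and 2.42% with Leydig genes at 3% or more, 14.42% and 0.8264% without cells carrying a macrophage marker, 15.63% and 2.098% with 2 or more Ccl2 counts, and 15.96% and 1.486% after thinning to 2000 counts.

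Over all 135 cells, genes at least 1.5-fold higher numbered 591 and lower ones 517 without cells carrying a macrophage marker (5787 genes measured), and 341 and 308 at 50 counts or more (4674 genes), and higher ones 538 with 10 counts or more in the cells without Ccl2. Lower genes numbered 1490 against all cells without Ccl2, 531 with Leydig genes at 3% or more, and 518 without cells carrying 4 or more macrophage markers. The chemokine median of 2.35 was 1.52 against all cells without Ccl2, 1.11 with Leydig genes at 2% or more, 3.36 at 50 counts or more, 0.69 with 10 counts or more in the cells without Ccl2, and 0.93 and 0.72 in the 2 settings without macrophage-marked cells, where that of androgen synthesis was 0.14 and 0.12. The macrophage marker median of 7.21 (6.35 with genes at 0 put at their bound) was 4.58 against all cells without Ccl2, 4.79 thinned, 4.87 matched on Leydig share too and 4.82 against a further set of matched cells. The senescence median was 0.63 thinned, and that of the Ly6 family 0.61 against the further set. The spermatid median of 0.85 was -0.67 against all cells, -0.51 thinned, -1.03 matched on Leydig share, -1.67 against the further set, -0.15 and -0.28 without macrophage-marked cells, 0.29 with Leydig genes at 3% or more and 1.5 at 50 counts or more. Of single genes, Cox7b2 (0.49) and Eid3 (0.22) reversed when matched on Leydig share, Eid3 (0.13) with cells weighted equally, Rsph1 with Leydig genes at 3% or more (0.12) and without cells with 4 or more markers (0.10), Klk1 (0.44) without its highest cell, and Klf4 without cells carrying any (-0.63) or 4 or more (-0.48) macrophage markers.

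In marker-free cells, genes at least 1.5-fold higher and lower numbered 1001 and 1428 against all cells without Ccl2, 979 and 893 thinned, 138 and 93 at 50 counts or more, and 360 and 778 with 10 counts or more in the cells without Ccl2. The chemokine median of 0.93 was -0.00 in the last setting, where 5 members were left, and between 0.22 and 1.06 in the others. The acute-phase median of 0.43 was 0.28 against all cells, 0.21 matched on Leydig share, 0.24 with Leydig genes at 3% or more and 0.31 against the further set. The Ly6 median was 0.36 against all cells and the mitochondrially encoded one -0.23 thinned. The spermatid median of -0.15 was -2.29 against all cells, -2.04 thinned, -2.73 matched on Leydig share and -1.07 against the further set. Cyp21a1 (-0.08) and Mvk (0.21) reversed thinned, and Pink1 against the further set (0.15), where Cyp21a1 was at 0.00. The NF-kB, interferon, p53, immediate early and androgen synthesis medians kept their direction under all 15 alternatives. The cause of these changes was not tested. The further set, the removal of top cells, the limit of 4 markers and the filter on the cells without Ccl2 were chosen after seeing the data. Depth limits genes under 20 counts, which include most cytokines of the marker-free cells.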
